A study of Drosophila melanogaster with 4 samples.

Results

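Among the transcripts read on whole-body microarrays of Drosophila melanogaster, 30 probes of 26 transcripts were lower after prenatal hyperbaric normoxia (HN) in females and in males alike, out of 16097 probes for transcripts with a FlyBase identifier that stood well above background on every array. These probes were chosen by their HN over control ratios, with a limit of 1.5-fold lower in each sex (a log2 ratio below -0.58). Their ratios are therefore given as a description and were not tested. Signals are the processed spot intensity, averaged over the spots of a probe and divided by the array median over all 32162 probes that are not controls, so that a scaled signal of 1 is the signal of the middle probe of that array. In females 202 probes (1.25% of those eligible) were below the limit, in males 195 (1.21%), and the 30 that were below it in both made up 0.186%. They were 14.9% of the probes lower in females and 15.4% of those lower in males, and 122 other probes were more than 1.5-fold higher in both sexes.

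The flies were of the strain w1118, described as wild type in the study's methods, and were 10 days old when whole bodies were taken. HN-treated females and HN-treated males had been kept at 2 ATA with a normal oxygen supply from the fertilized egg to eclosion, and control females and control males had developed without the raised pressure. Each of these 4 groups was a pool of flies on 1 one-color Agilent array, so that no spread between pools can be measured and no p-value can be given for any of the differences. All 4 arrays lay on 1 slide, but the control male array was read in a different scan from the other 3. In males, therefore, scan and treatment cannot be told apart, whereas both female arrays came from the same scan. Between control females and control males, scan and sex cannot be told apart either.

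Hyperbaric normoxia raises the ambient pressure without raising the inspired oxygen, and here it ended at eclosion, so the arrays read adult transcripts well after the exposure. A whole-body array reports the summed abundance of an RNA over gut, fat body, muscle, nervous system and gonads. In such samples fewer cells of a type and less RNA per cell cannot be told apart. The one gene among these transcripts that a reference table names, Pepck1, encodes a phosphoenolpyruvate carboxykinase, the enzyme that turns oxaloacetate into phosphoenolpyruvate and so commits carbon to the synthesis of glucose.

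The median array signal before scaling was 192 in control females, 180 in HN-treated females, 356 in control males and 453 in HN-treated males, and between 67.0% and 78.5% of probes were well above background, with 0 saturated spots. The sex labels were checked with marker genes, of which 5 of 14 had a named probe. Vm34Ca, a component of the vitelline membrane of the egg, had scaled signals of 99.6 and 107 in control and HN-treated females against 0.0378 and 0.0169 in the corresponding males. Dup99B, a seminal fluid peptide, had 0.0221 and 0.110 in females against 18.7 and 18.5 in males, and soti was not well above background on any array.

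Over the 30 probes the median log2 ratio of HN over control was -0.99 in females, with a range from -4.70 to -0.63, and -0.93 in males, with a range from -2.16 to -0.61. Over all eligible probes both medians were -0.06. Under the main scaling the difference was larger in females for 19 of the probes and larger in males for 11. The female minus male log2 ratio had a median of -0.12 over the set and 0.02 over all eligible probes. Some gaps were far below the software error, as on the brighter probe of FBtr0085644 (-0.02, with errors of 0.21 in each sex). Without scaling, every gap moves towards a larger difference in females. More than 2-fold lower in both sexes were 5 probes, while 10 passed that mark in females alone, 4 in males alone and 11 in neither sex. Among all eligible probes, too, more passed it in females (92) than in males (54).

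**Figure D1:**
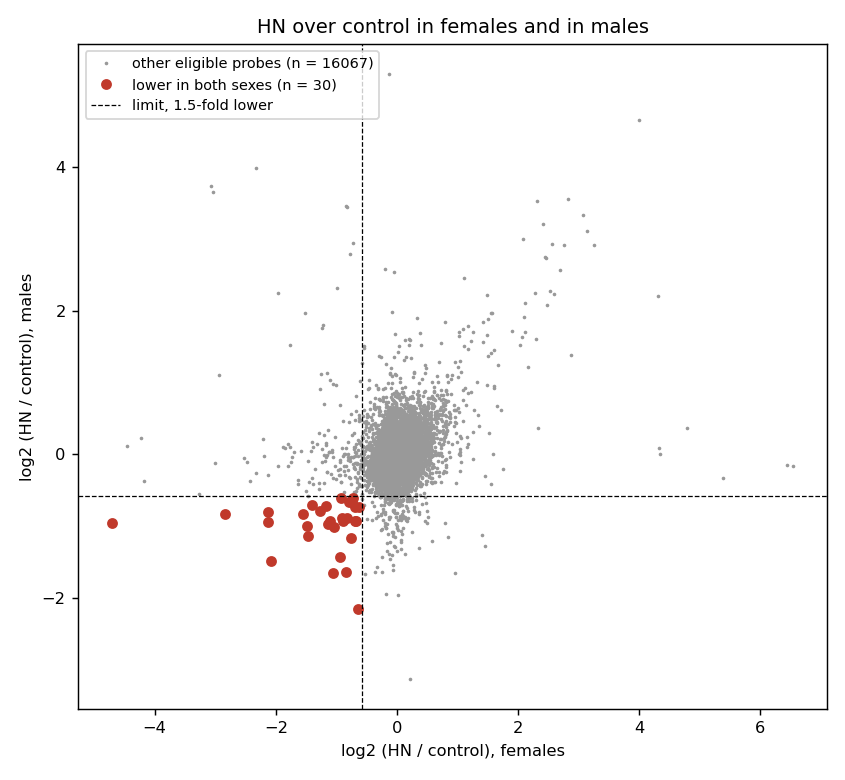
Log2 ratio of HN over control in females (horizontal axis) and in males (vertical axis) for the 16097 eligible probes, 1 array per group, with the 30 probes lower in both sexes as large points and the limit of 1.5-fold lower as dashed lines. The chosen probes fill the lower left corner by construction, with 1 point far to the left at -4.70 in females and 1 lowest at -2.16 in males.

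The error of a single ratio within an array could be taken from the software and from repeat spots. The software's own error of the log2 ratio lay between 0.14 and 0.30 in females and between 0.14 and 0.29 in males over the 30 probes. With 1 such error added, the ratio stayed below the limit in both sexes for 18 probes. With 2 errors added it stayed below 0 for all 30. The rule had already put every one of these ratios below the limit, and no error was above 0.30. That all 30 stayed below 0 was therefore largely fixed by the choice and is no separate support. Of the 14 probes with a pair of spots, 13 had each spot below the limit in both sexes. The mean of these spots had chosen the probe, so this count is no separate support. The SD of the log2 ratio between the spots of a pair was 0.17 in females and 0.04 in males. These errors cover spotting, hybridization and reading of one RNA pool and leave out the spread between pools of flies.

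Among the 30 probes, the one with the largest difference shared by both sexes was that of FBtr0089324, a transcript whose gene the reference table does not name. FBtr0089324 had a scaled signal of 198 in control females, 46.8 in HN-treated females, 248 in control males and 88.8 in HN-treated males. It was one of the brightest transcripts of control flies, at percentile 95.5 of eligible probes in females and 99.2 in males, and was 4.24-fold lower after HN in females and 2.80-fold lower in males. The log2 ratios were -2.09 and -1.48, each with a software error of 0.14, and its pair of spots gave -2.11 and -2.06 in females and -1.49 and -1.48 in males. In HN-treated males it remained among the brightest probes, at percentile 96.8, whereas in HN-treated females it stood at 76.8.

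FBtr0091930 was read by 2 probes of unequal brightness that both passed the limit. The brighter probe measured 221 in control females, 80.1 in HN-treated females, 123 in control males and 56.2 in HN-treated males, with log2 ratios of -1.46 in females and -1.13 in males. The dimmer probe measured 36.3 and 12.4 in control and HN-treated females and 16.6 and 9.31 in the males, with log2 ratios of -1.54 and -0.83. That control flies were higher than HN-treated flies within each sex on both probes follows from the rule and is no separate support. The difference was larger in females on both.

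FBtr0086701 is the transcript that the synonyms in the table of RefSeq genes pair with Pepck1, and also with CG45087, an upstream reading frame of the same transcript by its synonym. This probe was dim, with scaled signals of 0.575 in control females, 0.276 in HN-treated females, 0.635 in control males and 0.202 in HN-treated males. It was 2.08-fold lower after HN in females (log2 ratio -1.06, software error 0.24) and 3.14-fold lower in males (log2 ratio -1.65, software error 0.21). Before scaling these were intensities of 111, 49.8, 226 and 91.5, and the HN-treated female value lay at percentile 3.41 of the eligible probes of its array. With a normexp background correction in place of the software's, the female ratio was -0.51, inside the limit, and the male ratio -1.28.

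Transcripts with neighbouring identifiers were also present. How often neighbouring identifiers have like ratios among all eligible probes was not counted, so such runs are not shown to be particular to the set. FBtr0086699 and FBtr0086700, the identifiers just before that of Pepck1, were both lower after HN, and in all 3 the difference was larger in males. FBtr0086699 had 0.741 and 0.415 in control and HN-treated females and 1.26 and 0.406 in the males, with log2 ratios of -0.84 and -1.64. FBtr0086700, far brighter, had 33.5 and 19.7 in females and 30.7 and 13.7 in males, with log2 ratios of -0.76 and -1.17. FBtr0086697, the next lower identifier with a probe, had ratios of -0.07 and -0.22. A second probe of FBtr0086699, well above background on only 1 array, did not share the direction, at 0.36 in females and 1.46 in males with software errors of 0.81 and 0.71.

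The other run of identifiers was FBtr0089418 and FBtr0089419. FBtr0089418 measured 2.20 in control females, 1.03 in HN-treated females, 0.954 in control males and 0.499 in HN-treated males, with log2 ratios of -1.10 and -0.93. FBtr0089419 measured 0.540 and 0.293 in females and 0.250 and 0.131 in males, with ratios of -0.88 and -0.93. Both were about as low in HN-treated males as in HN-treated females relative to their own controls, and the next identifier, FBtr0089420, had log2 ratios of -0.07 and 0.14. What the genes of these neighbouring identifiers share is not given by the files or the reference table.

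**Figure D2:**
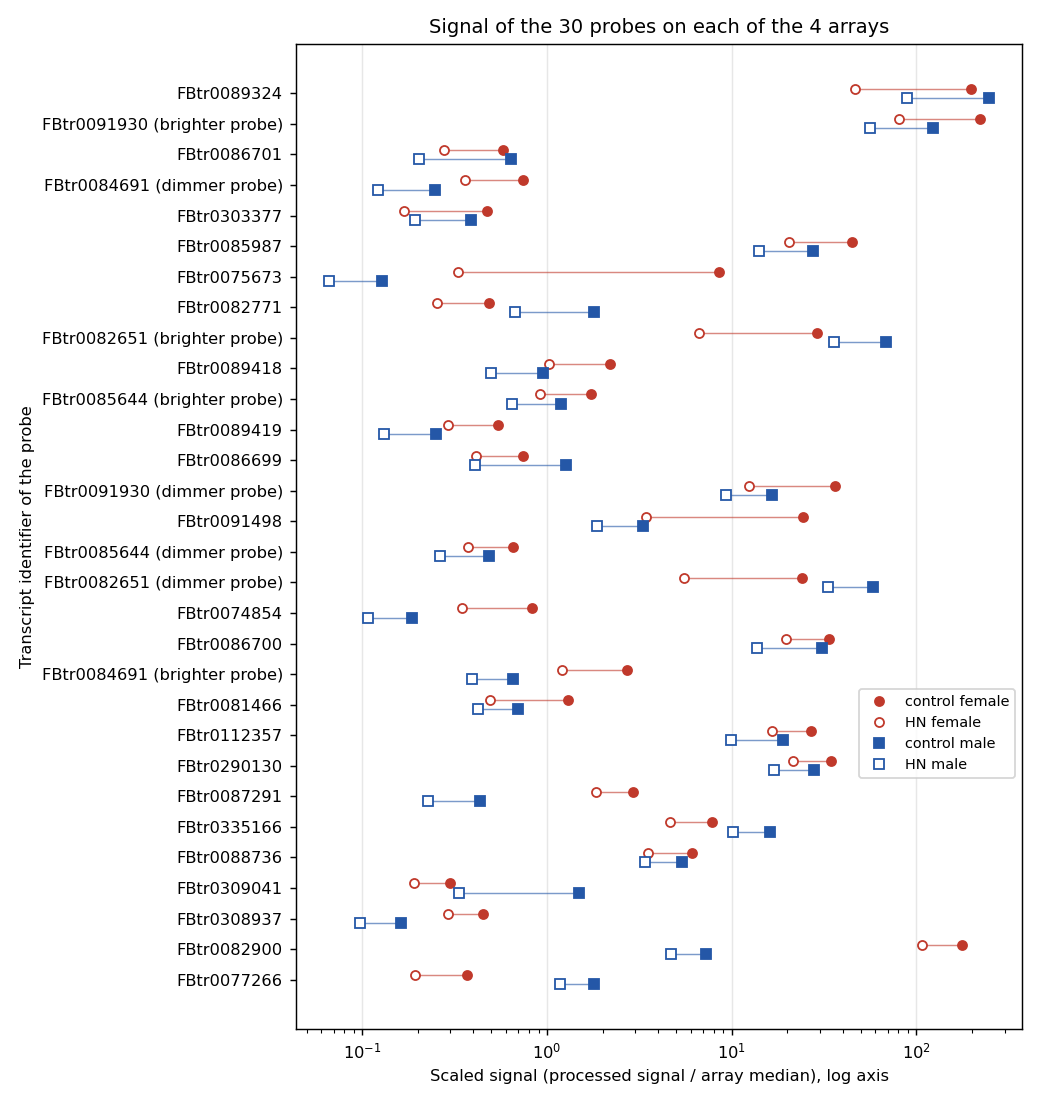
Scaled signal (processed signal over array median, log axis) of each of the 30 probes on the 4 arrays, ordered by the smaller of the female and male differences, with filled symbols for control and open symbols for HN-treated flies and a line joining the 2 arrays of a sex. Signals run from 0.0658 to 248, and the longest line is that of FBtr0075673 in females, from 8.52 to 0.328.

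FBtr0075673 had the lowest ratio of HN over control in females of all 16097 eligible probes. It measured 8.52 in control females and 0.328 in HN-treated females, a 26.0-fold difference with a log2 ratio of -4.70, and its pair of spots gave -4.83 and -4.59. The female ratio was -3.72 with quantile normalization and -3.67 with normexp. In males it was 0.127 in controls and 0.0658 after HN, a 1.94-fold difference with a log2 ratio of -0.95. Control females thus stood 66.9-fold above control males under the main scaling, and over 5 scalings the log2 ratio of these arrays lay between 4.05 and 6.06. Its male signals were among the faintest eligible on their arrays, at percentile 1.26 in controls and 0.0745 after HN.

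FBtr0091498 showed a related shape at higher signal under the main scaling. It measured 24.3 in control females, 3.42 in HN-treated females, 3.32 in control males and 1.87 in HN-treated males. Control females stood apart from the other 3 arrays, and the log2 ratios were -2.83 in females and -0.83 in males. FBtr0074854, with 0.832 and 0.347 in females and 0.186 and 0.107 in males, also had its larger difference in females (-1.26 against -0.80).

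FBtr0082651 combined a larger difference in females with a higher signal in males. Its brighter probe measured 29.0 in control females, 6.66 in HN-treated females, 68.8 in control males and 35.9 in HN-treated males, with log2 ratios of -2.12 and -0.94. The dimmer probe measured 24.1 and 5.49 in females and 58.2 and 33.3 in males, with ratios of -2.14 and -0.81. The 2 probes thus gave like ratios in each sex. Control males stood 2.37-fold and 2.41-fold above control females on them under the main scaling, and the direction was the same under all 5 scalings.

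Other RNAs outside the set were also lower in HN-treated females. The 4 probes of roX1, an RNA of the male dosage compensation complex that coats the X chromosome of males, were 2.20-fold to 7.43-fold lower in HN-treated than in control females, while their male log2 ratios lay between -0.15 and 0.01. Summed over these probes, roX1 measured 6.53 in control females, 1.11 in HN-treated females, 188 in control males and 179 in HN-treated males. The probes of roX2, the other RNA of that complex, were well above background in males only, and their female log2 ratios of -0.13 and -0.04 are ratios of background. Ilp4, an insulin-like peptide gene expressed in the embryo, and chosen here after its values were seen, was well above background on every spot of the control female array alone. With the HN-treated female signal taken as no less than the dimmest signal well above background on that array, its 2 probes were at least 12.6-fold and at least 12.2-fold lower in HN-treated females. What these RNAs have to do with the female values of FBtr0075673, FBtr0091498 and FBtr0082651 was not tested.

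In 4 of the 30 probes the difference was more than 2-fold in males and less in females. FBtr0309041 measured 0.299 in control females, 0.191 in HN-treated females, 1.48 in control males and 0.333 in HN-treated males. Its male log2 ratio of -2.16 was the second lowest of all eligible probes, while the female ratio of -0.65 averaged a pair of spots at -1.02 and -0.28. It was the only probe of the set with a repeat spot inside the limit. FBtr0082771 measured 0.489 and 0.254 in females and 1.81 and 0.670 in males, with ratios of -0.94 and -1.43. FBtr0086699 and FBtr0086700, described above, were the others.

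FBtr0084691 was 0.743 and 0.362 in control and HN-treated females and 0.247 and 0.122 in males on its dimmer probe, with log2 ratios of -1.04 and -1.01. Its brighter probe read 2.70 and 1.20 in females and 0.653 and 0.395 in males, with ratios of -1.16 and -0.73, the larger in females. Both probes are in the set, so that HN-treated flies were below controls in each sex follows from the rule. FBtr0303377 had 0.471 and 0.168 in females and 0.386 and 0.192 in males, with ratios of -1.49 and -1.01, of which the female one was larger here and was -0.57, inside the limit, under normexp. FBtr0085987 was brighter, at 45.0 and 20.5 in females and 27.6 and 14.1 in males, with ratios of -1.13 and -0.97.

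FBtr0085644 also had 2 probes in the set. The brighter one read 1.73 and 0.920 in control and HN-treated females and 1.20 and 0.644 in males, with log2 ratios of -0.91 and -0.89. The dimmer one read 0.657 and 0.372 in females and 0.486 and 0.262 in males, with ratios of -0.82 and -0.89. The 4 ratios of this transcript thus lay between -0.91 and -0.82. At the bright end, FBtr0082900 measured 178 in control females and 108 in HN-treated females but 7.23 and 4.72 in the males, with ratios of -0.72 and -0.61 just past the limit. Its control females stood 24.6-fold above control males under the main scaling, with a log2 ratio between 2.60 and 4.62 over 5 scalings.

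The other 13 probes, those of FBtr0086699, FBtr0086700, FBtr0091498, FBtr0074854 and FBtr0309041 among them, had scaled signals with a median of 2.92 in control females (range 0.299 to 34.4), 1.83 in HN-treated females (0.191 to 21.4), 1.79 in control males (0.162 to 30.7) and 1.17 in HN-treated males (0.0973 to 16.9). Their log2 ratios had a median of -0.76 in females and -0.80 in males. FBtr0081466 was the one probe with a spot that the software flagged as an outlier, on the control female array, and since it has 1 spot its female ratio of -1.41 rests on that spot. Under normexp its ratios were -0.32 in females and -0.54 in males, both inside the limit. FBtr0112357, FBtr0290130, FBtr0087291, FBtr0335166 and FBtr0088736 had female ratios between -0.80 and -0.67 and male ratios between -0.93 and -0.66.

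Nearest inside the limit stood FBtr0308937 (-0.63 in females and -0.74 in males), FBtr0082900 and FBtr0077266 (-0.93 and -0.61). Nearest outside it stood FBtr0082775 (-1.47 and -0.58), a second probe of FBtr0077266 (-0.58 and -0.62) and a second probe of FBtr0335166 (-0.73 and -0.57). For each of these 6 probes the ratio that decided its side lay closer to the limit than its own software error.

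**Figure D3:**
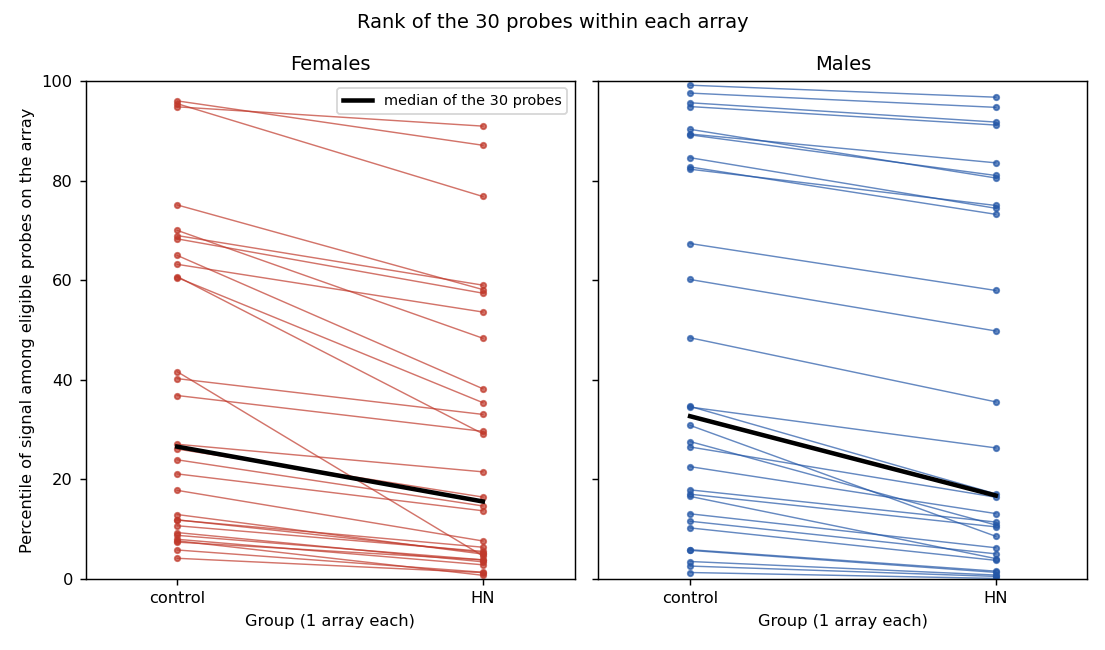
Percentile of each of the 30 probes among the 16097 eligible probes of the same array, in control and HN-treated flies of each sex, 1 array per group, with the median as a thick line. The median percentile was 26.5 in control and 15.5 in HN-treated females, and 32.7 in control and 16.7 in HN-treated males. The drop from control to HN is there by construction.

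The set reached from the faintest to the brightest signals. In control females 14 of the 30 probes were below the 25th percentile of the eligible probes and 11 above the 50th, and in control males these numbers were 12 and 12. After HN, 17 probes in females and 16 in males were below the 25th percentile, a drop that follows from the rule that chose them. Scaled signals were under 1 on every array for 7 probes and over 1 on every array for 13.

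Which sex had the higher control signal depended on the scaling for 16 of the 30 probes. After the main scaling, the median signal of all eligible probes was still 14.3 in control females and 3.53 in control males. Why the scalings differ was not tested. Under all 5 scalings compared, 6 probes were higher in control females, namely those of FBtr0075673, FBtr0091498, FBtr0074854, FBtr0087291 and FBtr0082900 and the brighter probe of FBtr0084691. Under all 5, 8 probes were higher in control males, namely those of FBtr0089324, FBtr0082771, FBtr0086699, FBtr0335166, FBtr0309041 and FBtr0077266 and both probes of FBtr0082651. The median log2 ratio of control females over control males was 0.52 for the set and 1.67 for all eligible probes under the main scaling, and the set's median was below 0 under each of the other 4 scalings. Relative to all eligible probes, the set's median was lower by 1.15 on the log2 scale. Since the control male array had a scan of its own, scan and sex cannot be told apart in these control ratios.

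For 8 of the transcripts the array holds another probe outside the set. These 8 probes are no replicates, since they read the same 4 RNA pools, and they are outside the set because they failed the rule. The 5 that were well above background on every array were eligible but had a ratio inside the limit in at least 1 sex, and all 5 were below 0 in both sexes, as were 47.3% of all eligible probes. The other 3 were not well above background on every array. One of them, a second probe of FBtr0303377 above background on 3 arrays, had ratios of -1.74 and -1.22, below the limit in both sexes. That of FBtr0089418 was above background on 0 arrays. The second probe of FBtr0309041 had -0.19 in females and -1.94 in males, and that of FBtr0082900 had -0.70 and -0.55. The third was the faint probe of FBtr0086699 described above, and for 14 of the 30 probes the array holds no other probe of the transcript.

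The spots of the set were spread over the array. The 44 spots lay between rows 3 and 531 of 532, and no pair of them was closer than 3 rows or columns.

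**Figure D4:**
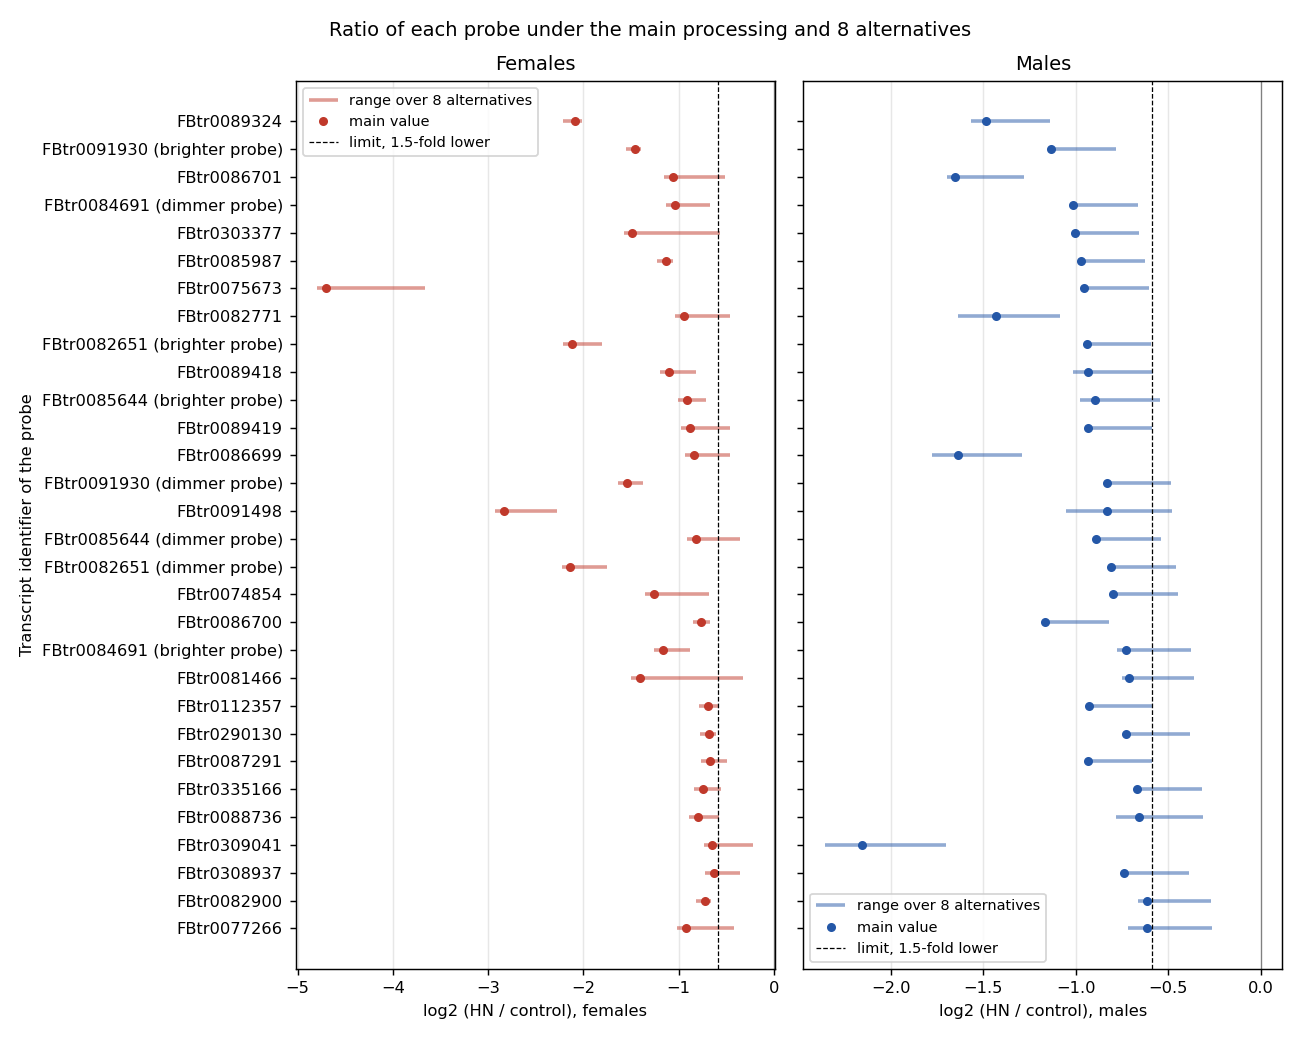
Log2 ratio of HN over control of the 30 probes in females (left) and males (right) under the main processing (points) and its range over 8 alternatives (bars), with the limit of 1.5-fold lower as a dashed line. In males most bars extend to the right of the point, towards smaller differences, and 7 probes kept both ratios below the limit under all 8 alternatives.

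Under 8 alternatives of scaling, background, spot averaging, value table and floor, 7 probes stayed below the limit in both sexes each time. These were FBtr0089324, the brighter probes of FBtr0091930 and FBtr0082651, the dimmer probe of FBtr0084691, FBtr0085987, FBtr0075673 and FBtr0086700. A further 14 stayed below it under 7 of the 8. The floor changed none of these ratios and the deposited table hardly moved them, so fewer than 8 settings could take a probe out. Without scaling 13 of the 30 were below the limit in both sexes, and with normexp 18. Those inside the limit in at least 1 sex under normexp were the probes of Pepck1, FBtr0303377, FBtr0082771, FBtr0089419, FBtr0086699, FBtr0081466, FBtr0088736, FBtr0309041, FBtr0308937, FBtr0082900 and FBtr0077266 and the dimmer probe of FBtr0085644.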

How the data were processed

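Whole-body RNA of control and HN-treated flies of each sex was read on 4 one-color Agilent arrays, 1 per group, with groups taken from the sample labels. The authors deposited, for every spot, the processed signal, a background-subtracted intensity from the scanner software (Feature Extraction 11.5.1.1) that sets the lowest signals to a small positive value, together with 0 or 1 flags for background, outliers and saturation. It is not scaled between arrays. A further deposited table gives 1 intensity per probe, and 99.0% to 99.3% of its values were within 0.1% of the mean over spots. The methods scale each chip by its 50th percentile, which was followed here.

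Control spots were removed, replicate spots were averaged with outlier-flagged ones kept, and each array was divided by its median over probes that are not controls. Probes with an FBtr name (21498 of 32162) and every spot well above background on all 4 arrays were eligible, 16097 in all. HN was divided by control, and a ratio below 1/1.5 in both sexes chose the set. No test was run on it, since the ratios chose it and each group holds 1 array. The number of arrays limits the precision, and the software error and repeat spots measure error within an array only. The scripts were tested on simulated data.

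All values are given for the 12 probes with the largest smaller difference of the sexes, for any with a named gene, for transcripts with more than 1 chosen probe and for the 5 brightest. The members and lists were chosen with earlier results of these data known. Names came from the RefSeq table of the Release 6 assembly, in which 42 FBtr probes matched by synonym and 393 probes by accession. No coordinates are given because the array was designed on an older assembly. In 4 gene lists (antioxidant and heat shock, antimicrobial peptides, yolk and eggshell, and digestive proteases and lipases) 0%, 0%, 7.69% and 21.4% of genes had a named probe, under the minimum of 80%, and none was described. Alternatives were the 75th percentile, no scaling, the median of eligible probes, quantile normalization, normexp (limma 3.58.1, R 4.3.3, offset 50), log2 averaging without outlier spots, the deposited table, a floor of 5, a 2-fold limit and other filters. Python 3.11.15, numpy 2.4.6, pandas 2.3.3 and matplotlib 3.10.9 were used.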

Additional observations from a re-analysis of the deposited data

How the results depend on the processing

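The normexp setting was chosen after seeing the data. It used the median spot signal, since the mean spot signal named in the plan is not among the columns used here, and the planned form was not run. Against 30 probes lower in both sexes, 202 in females and 195 in males, no scaling gave 14 in both and 65 in males, and normexp gave 128 in females and 128 in males. A 2-fold limit gave 5, 92 and 54, which follows from a stricter limit. No filter on dim probes gave 159, 862 and 1177. The probes added there were not well above background on every array, and the counts rose by more than the number of probes compared. Of the 30 probes, the 75th percentile kept 26, the median of eligible probes 26, quantile normalization 26, no scaling 13, normexp 18, log2 averaging without outlier spots 29, and the deposited table and the floor 30 each. The set's median log2 ratio was -0.71 in females and -0.71 in males under normexp, and -0.58 in males without scaling. Without scaling, the median over all eligible probes moved to -0.15 in females and 0.29 in males, from -0.06 in both, so that every male ratio is shifted upward there by construction. For normexp the cause was not tested. The median log2 ratio of control females over control males, 0.52 in the main setting, was -1.09 with the 75th percentile, -0.37 without scaling, -1.50 with the median of eligible probes and -0.18 with quantile normalization, and 0.34 under normexp. Of 272 ratios of the probes given in full, under these 8 alternatives, 218 moved by less than the SD of repeat spots (0.15 in females and 0.10 in males), 54 by more, 16 came inside the limit and 0 changed sign. Several of the 8 could hardly move a ratio, so the 218 is no measure of robustness. The floor changed none of these ratios, and the deposited table nearly repeats the spot means. The 75th percentile and the median of eligible probes shift every ratio of a sex by the same amount, below that SD. No scaling also shifts every ratio of a sex by the same amount, below that SD in females and above it in males. Every male ratio thus counts among the 54 there by construction.

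No paired analysis was possible because each group holds 1 array and the labels give no replicate numbers. Leaving out a replicate was not run for the same reason. The limits of these data are the 1 pool of flies per group, the separate scan of the control male array, and signal over background, since 7 of the 30 probes had scaled signals under 1 on every array.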

Other observations

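Outside the FlyBase transcript identifiers, 5 probes with other names were also more than 1.5-fold lower after HN in both sexes and well above background on all 4 arrays. They were looked at after the data were seen. LP03332 was the brightest, at 184 in control females, 42.5 in HN-treated females, 214 in control males and 84.8 in HN-treated males, with log2 ratios of -2.12 and -1.33. Its 4 signals and both ratios lay close to those of FBtr0089324 (-2.09 and -1.48), and whether the probes read the same RNA was not tested, since the sequences were not used here. TC246719 had log2 ratios of -1.09 in females and -1.49 in males, A_09_P215460 of -0.70 and -1.18, TC239128 of -0.70 and -1.13, and TC254781 of -0.84 and -0.64.

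Also chosen after its values were seen, slp1, a forkhead transcription factor gene of embryonic segmentation, had scaled signals of 1.55 in control females, 0.639 in HN-treated females, 0.784 in control males and 0.715 in HN-treated males. Its log2 ratio of -1.28 in females was past the limit, and that of -0.13 in males was not. No test was made of a sex difference.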
